A study of Homo sapiens with 23 samples.

Results

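The 44 genes described here encode the folding machinery of the endoplasmic reticulum (ER) and the machinery that removes proteins that fail to fold, together with the stress sensors that govern both. They were taken as a list by name, with earlier results of these data known. Counts set beside the share of all tested genes therefore describe the list and are not an independent test of it. It holds 11 chaperones or co-chaperones, 3 factors of the lectin cycle, 8 factors of disulfide formation, 11 factors of ER-associated degradation (ERAD), 5 stress sensors or transcription factors and 6 factors of translocation, export or retrieval. All 44 were found among the 28105 genes with a symbol in the expression tables, and all 44 passed the filter on low counts that left 16831 genes for testing, DERL3 with only 2 to 21 reads a library.

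The cells were HCT116, a line from a human colorectal cancer, and their polyadenylated RNA was sequenced in 8 libraries, 2 in each of 4 groups: MLL4 KO, BAP1 KO, control and WT. The MLL4 KO cells carry a knockout of KMT2D, the gene of the histone H3K4 methyltransferase MLL4, and are set against WT cells. The BAP1 KO cells carry a knockout of BAP1, a nuclear deubiquitinase of histone H2A, and are set against control cells, whose genotype is also given as WT. The tables of both the BAP1 KO and the control group, but not those of MLL4 KO and WT, name osTir1, a plant auxin receptor subunit used for induced protein degradation, so the unedited groups are not the same line. No treatment, dose or time is given for the RNA libraries, and the series' 15 ChIP-seq samples were not analysed here.

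Proteins that enter the ER are folded by HSPA5 (BiP), HSP90B1 and the calnexin cycle, and their disulfide bonds are made by protein disulfide isomerases that ERO1 enzymes recharge. Proteins that do not fold are trimmed by EDEM mannosidases, recognised by OS9 and SEL1L, ubiquitinated by SYVN1 (HRD1) and returned to the cytosol for degradation. When folding capacity falls short, the sensors ERN1 (IRE1), EIF2AK3 (PERK) and ATF6 start the unfolded protein response, in which the transcription factors XBP1, ATF6 and ATF4 raise the genes of this same machinery. Secretory epithelia and the tumours derived from them rely on this response.

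Several of the listed genes are textbook targets of that response through an element in their promoters, so the 250 bases before the start of 6 of them are shown, each from RefSeq, GRCh38.p14, and written 5′ to 3′ on the strand of the gene. The ER stress response element (ERSE) was searched on both strands as CCAAT and CCACG with 9 bases of any kind between them, and its variant ERSE-II as ATTGG and CCACG with 1 base between them. Capitals mark a match to either, in the form it takes on the gene's strand. The 6 carry a match and show the different directions found. HSPA5 (window chr9:125241344-125241593, minus strand) and HYOU1 (chr11:119057206-119057455, minus) were lower in BAP1 KO. XBP1 (chr22:28800570-28800819, minus) and HERPUD1 (chr16:56931892-56932141, plus) were higher in MLL4 KO. SDF2L1 (chr22:21642052-21642301, plus) and CALR (chr19:12938359-12938608, plus) were lower in control than in WT.
HSPA5: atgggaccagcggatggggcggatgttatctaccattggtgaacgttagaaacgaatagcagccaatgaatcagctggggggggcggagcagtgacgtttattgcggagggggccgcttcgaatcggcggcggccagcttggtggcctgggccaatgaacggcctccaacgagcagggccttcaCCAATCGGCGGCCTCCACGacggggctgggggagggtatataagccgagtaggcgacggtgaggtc
HYOU1: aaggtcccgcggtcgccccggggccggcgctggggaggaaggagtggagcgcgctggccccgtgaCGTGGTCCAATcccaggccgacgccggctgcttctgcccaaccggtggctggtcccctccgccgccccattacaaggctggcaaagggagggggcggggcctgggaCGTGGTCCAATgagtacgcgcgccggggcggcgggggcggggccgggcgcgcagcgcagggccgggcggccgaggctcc
XBP1: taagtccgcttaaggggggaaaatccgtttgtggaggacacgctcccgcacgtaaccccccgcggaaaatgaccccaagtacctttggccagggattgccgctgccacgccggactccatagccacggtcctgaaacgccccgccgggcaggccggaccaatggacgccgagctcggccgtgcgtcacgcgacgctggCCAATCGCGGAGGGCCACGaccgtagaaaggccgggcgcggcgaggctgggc
HERPUD1: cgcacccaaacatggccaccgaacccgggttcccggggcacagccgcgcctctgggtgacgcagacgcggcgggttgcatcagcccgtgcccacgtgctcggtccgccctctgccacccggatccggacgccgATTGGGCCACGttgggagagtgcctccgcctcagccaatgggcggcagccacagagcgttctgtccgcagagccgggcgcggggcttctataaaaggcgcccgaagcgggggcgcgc
SDF2L1: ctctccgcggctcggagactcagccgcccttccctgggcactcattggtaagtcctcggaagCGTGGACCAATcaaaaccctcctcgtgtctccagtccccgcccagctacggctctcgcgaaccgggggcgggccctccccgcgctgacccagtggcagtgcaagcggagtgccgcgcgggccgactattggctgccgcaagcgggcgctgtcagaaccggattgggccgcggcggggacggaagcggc
CALR: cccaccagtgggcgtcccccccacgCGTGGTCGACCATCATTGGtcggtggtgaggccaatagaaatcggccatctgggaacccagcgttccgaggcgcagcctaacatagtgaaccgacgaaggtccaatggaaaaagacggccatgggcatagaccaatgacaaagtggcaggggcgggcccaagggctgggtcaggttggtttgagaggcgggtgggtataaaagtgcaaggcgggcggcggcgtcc

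A match is a description of the letters and not of a bound site. In HSPA5 the ERSE lay 66 to 48 bases before the start, in XBP1 52 to 34 bases before it, and in CALR 225 to 207 bases before it in the opposite orientation. HYOU1 held ERSE-II at 185 to 175 and at 79 to 69 bases before its start, both in the opposite orientation, and the upstream match overlapped a match to the XBP1-type element TGACGTGG. Of 39 listed genes with a promoter window of 300 bases (250 before and 50 after the start), 8 held ERSE (HSPA5, HSP90B1, CALR, CANX, PDIA6, CRELD2, XBP1 and ERO1B), which occurs in 0.0916% of all 27305 genes with a window. ERSE-II was found in 3 (SDF2L1, HYOU1 and HERPUD1), against 0.0696% of all genes. TGACGTGG was found in 5 (DNAJC10, HYOU1, TXNDC5, TXNDC11 and KDELR3), against 0.927% of all genes. PDIA3, DERL1, DERL3, SEC24D and KDELR2 had no window. Because the list includes textbook targets of such an element, these shares describe the list and do not test it.

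Between genes, levels can be compared only per length, and on the deposited RPKM scale (reads per kilobase of transcript and 1e6 reads) P4HB was the highest of the 44 with a mean of 475 RPKM over the 8 libraries. HSPA5 followed at 347 RPKM, HSP90B1 at 316 RPKM, CALR at 301 RPKM and CANX at 148 RPKM, all abundant ER residents. The sensors lay low in the order, ATF6 at 9.71 RPKM, ERN1 at 5.60 RPKM and EIF2AK3 at 3.49 RPKM, and DERL3 came last at 0.0736 RPKM. The 44 genes together took 0.98% and 1.00% of all gene counts in the MLL4 KO libraries, 0.99% and 0.99% in BAP1 KO, 1.34% and 1.36% in control and 0.85% and 0.89% in WT. HSPA5 alone took 0.320% and 0.327% in control and between 0.0792% and 0.150% in the other 6 libraries. Without HSPA5 the control libraries remained the highest of the 8, at 1.02% and 1.04% against 0.770% to 0.874%.

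**Figure D1:**
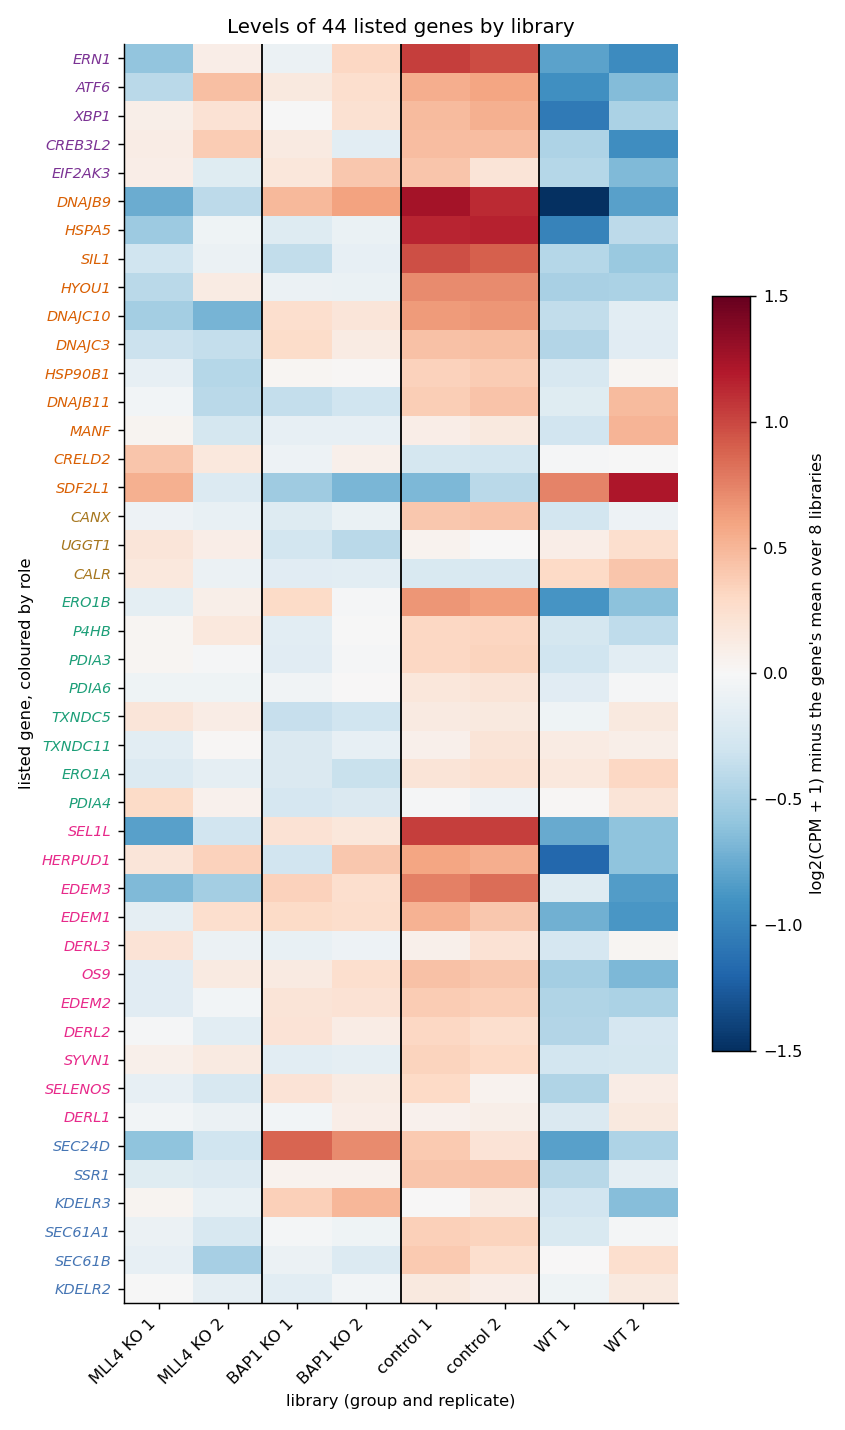
Heatmap of the 44 listed genes (vertical axis, coloured by role) in the 8 libraries (horizontal axis), as log2(CPM + 1), CPM being reads per 1e6 counted reads after TMM scaling, minus each gene's mean over the libraries. Red marks the control columns in most genes, where the control mean was the highest of the 4 groups for 34 of 44 (26.1% of all tested genes). Blue marks the WT columns, where the WT mean was the lowest for 25 of 44 (30.7% of all).

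Gene counts summed to 24.8 to 42.2 M a library (M, 1e6 reads). Nothing in the labels tells whether the replicates were grown separately, so the p-values measure only how far these libraries differ, which may be technical. The tables of the knockout libraries carry a different number for each replicate, and whether these numbers mark separate clones is not stated. If they do, differences between clones and effects of the knockout cannot be told apart beyond the spread of 2 libraries. The median difference between the replicates over the 44 genes, in log2 units, was 0.20 in MLL4 KO, 0.10 in BAP1 KO, 0.04 in control and 0.21 in WT. Over all tested genes it was 0.18 in MLL4 KO, 0.16 in BAP1 KO, 0.08 in control and 0.23 in WT. In WT, 33 of the 44 were higher in replicate 2, and the same count over all tested genes was not taken. KMT2D mRNA was not lower in MLL4 KO (280 and 406 CPM) than in WT (309 and 371 CPM). Likewise, BAP1 mRNA was not lower in BAP1 KO (67.4 and 57.4 CPM) than in control (56.7 and 62.1 CPM), so neither transcript checks its label. All 8 epithelial markers were present (3104 to 6321 CPM summed, highest in control). All 4 leukocyte markers were under 1 CPM in every library, and of the fibroblast markers COL1A1 was at 25.5 to 54.9 CPM while DCN and LUM were at 0. In bulk RNA a lower share of expressing cells and less RNA per cell cannot be told apart.

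In BAP1 KO, HSPA5 and 4 more of the 11 chaperones, 2 of 3 lectin cycle genes, 4 of 8 disulfide genes and 2 of 11 ERAD genes were lower than in control, with 1 of 5 sensors and transcription factors and 1 of 6 translocation, export or retrieval genes. A gene is counted as changed at a Benjamini-Hochberg adjusted p under 0.05 over all 16831 tested genes in edgeR's quasi-likelihood test, two-sided. By that rule 15 of 44 were lower (10.4% of all tested genes were) and 1, SEC24D, was higher (12.1% of all were), together 16 of 44 against 22.4%. The log2 fold change was negative for 40 of 44, with a median of -0.38 against 0.01 over all tested genes. Both BAP1 KO libraries lay below both control libraries in 36 of 44 (35.2% of all tested genes) and above them in 4 (37%). With only the 4 libraries of the comparison in the fit, 33 of 43 passed, 30 lower and 3 higher (41.6% of all genes tested there). HSPA5 and SIL1 alone passed without BAP1 KO replicate 1 (7.74% of all genes tested there), without control replicate 1 (6.67%) or without control replicate 2 (6.22%), and 5 of 44 passed without BAP1 KO replicate 2 (13.7%).

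In MLL4 KO, 3 of 5 sensor and transcription factor genes, 4 of 11 ERAD genes and 2 of 8 disulfide genes were higher than in WT. In all, 9 of 44 were higher (9.13% of all tested genes were) and 1, ERO1A, was lower (10% were), together 10 of 44 against 19.1%. The 9 were the sensor and transcription factor genes XBP1, ATF6 and CREB3L2, the ERAD genes EDEM1, HERPUD1, OS9 and SYVN1, and the disulfide genes P4HB and ERO1B. The median log2 fold change was 0.17 against 0.00 over all tested genes, 28 of 44 were positive, and the MLL4 KO libraries lay above WT in 19 of 44 (30% of all) and below in 6 (30.3%). In an edgeR fit on these 4 libraries alone 0 of 43 passed (0.367% of all genes tested there did), with 11 higher and 2 lower at an unadjusted p under 0.05, whereas DESeq2 on all 8 libraries passed 12 of 44 (22.2%). EDEM1 alone passed without MLL4 KO replicate 2 (3.08%), 5 passed without WT replicate 2 (3.84%), 16 without WT replicate 1 (30.5%), and 4 without control replicate 1 (6.21%) or 2 (6.29%). With upper-quartile scaling 11 were higher (11.2%) and 0 lower (7.2%).

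More of the listed genes passed between the unedited groups than in either knockout. The same held for all tested genes, of which 39.6% passed here, 22.4% in BAP1 KO and 19.1% in MLL4 KO. In control, 28 of 44 were higher than in WT (19.9% of all tested genes were) and 2, SDF2L1 and CALR, were lower (19.7% were), together 30 of 44 against 39.6%. The median log2 fold change was 0.64 against 0.02 over all tested genes, and both control libraries lay above both WT libraries in 31 of 44 (37.9% of all) and below in 5 (35.7%). The calls of 24 of the 30 held in every alternative and with any 1 library left out. Control against WT shares its control libraries with the BAP1 KO comparison and its WT libraries with the MLL4 KO comparison, so these comparisons are not independent of each other. The control and WT tables also differ in how they are named, and the sources used here do not say whether they were made alike.

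**Figure D2:**
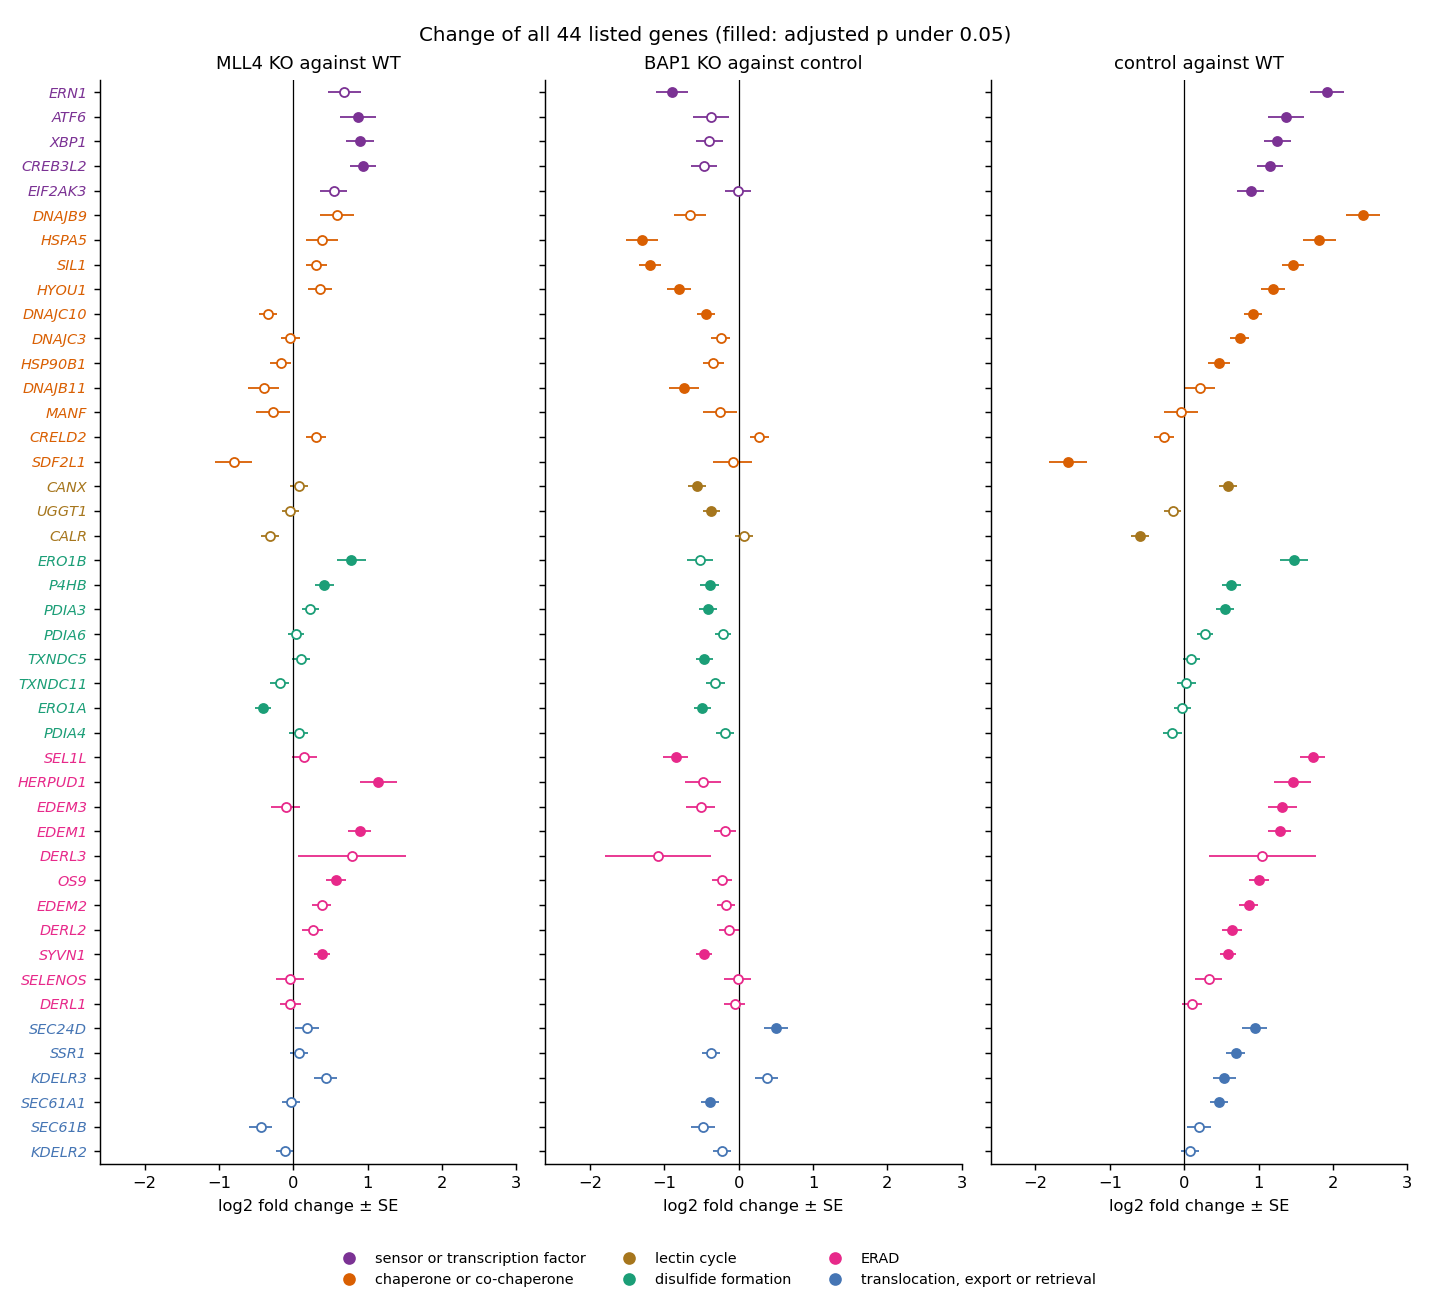
Log2 fold change ± SE (horizontal axis) of each of the 44 listed genes (vertical axis, grouped by role and ordered by the control against WT value), from the fit on 8 libraries. Filled points have an adjusted p under 0.05, of which there are 10 for MLL4 KO, 16 for BAP1 KO and 30 for control.

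**Figure D3:**
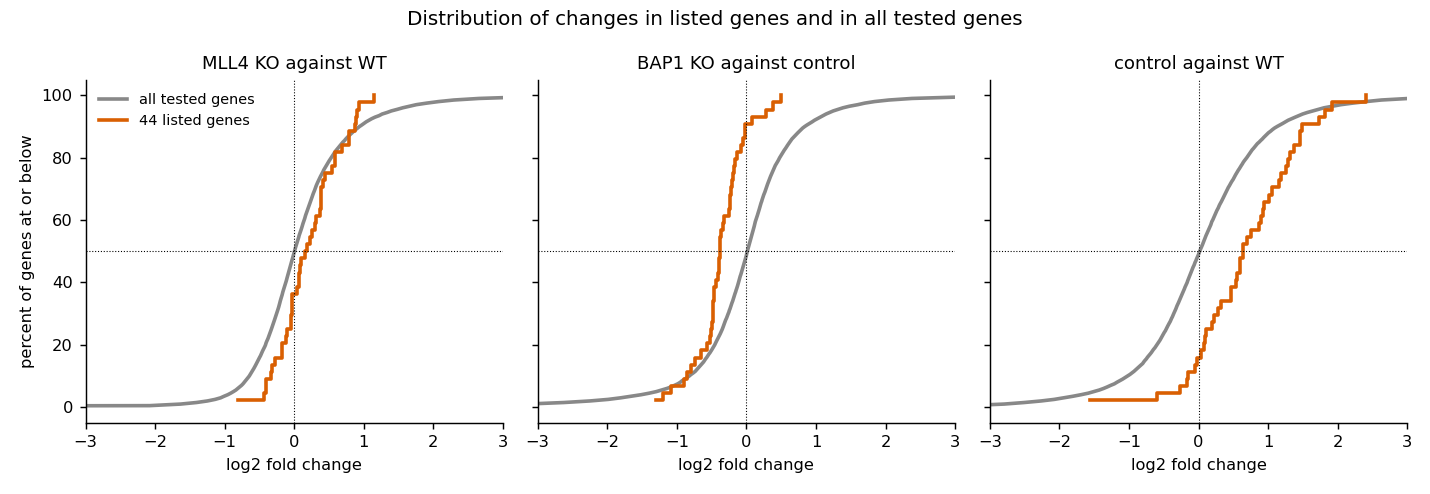
Cumulative distribution of log2 fold changes (horizontal axis) in the 44 listed genes (orange) and in all 16831 tested genes (grey), with the percent of genes at or below each value on the vertical axis. The listed genes' medians were 0.17 in MLL4 KO against WT, -0.38 in BAP1 KO against control and 0.64 in control against WT, with the grey median near 0 in each.

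All 5 sensor and transcription factor genes were higher in control than in WT (19.9% of all tested genes were). ERN1, the IRE1 kinase and endonuclease that splices XBP1 mRNA, had 32.9 and 53.5 CPM in MLL4 KO, 47.0 and 62.3 in BAP1 KO, 104 and 99.5 in control and 28.2 and 25.5 in WT. The control libraries were the highest and the WT libraries the lowest, with no overlap in any of the 3 comparisons. ERN1 was lower in BAP1 KO (-0.90 ± 0.22 on the log2 scale, adjusted p = 0.0199) and higher in control than in WT (1.92 ± 0.23, adjusted p = 0.000386), and its MLL4 KO value of 0.69 ± 0.22 did not pass (adjusted p = 0.0618). XBP1 had 92.7 and 101 CPM in MLL4 KO, 86.3 and 102 in BAP1 KO, 121 and 126 in control and 41.1 and 62.5 in WT. Here the knockouts sat at nearly the same level, above WT and below control, and XBP1 was higher in MLL4 KO than in WT (0.90 ± 0.18, adjusted p = 0.0166), while the BAP1 KO value was -0.39 ± 0.18 (adjusted p = 0.152).

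ATF6, the membrane-bound factor that is cut in the Golgi to reach the nucleus, had 65.1 and 119 CPM in MLL4 KO, 95.9 and 103 in BAP1 KO, 127 and 131 in control and 45.3 and 54.7 in WT. The MLL4 KO replicates were far apart but both lay above WT, and the call (0.88 ± 0.24, adjusted p = 0.0400) was lost with 7 of the 8 libraries left out in turn. CREB3L2, a related membrane-bound factor that acts on secretory genes, had 113 and 136 CPM in MLL4 KO, 115 and 93.1 in BAP1 KO, 144 and 144 in control and 75.4 and 54.3 in WT. Every WT library was below every other library, and CREB3L2 was higher in MLL4 KO (0.94 ± 0.18, adjusted p = 0.0132). EIF2AK3, the PERK kinase that phosphorylates eIF2α, had 21.0 and 17.1 CPM in MLL4 KO, 22.1 and 26.1 in BAP1 KO, 26.3 and 22.4 in control and 14.3 and 12 in WT. BAP1 KO and control overlapped (-0.01 ± 0.17), and EIF2AK3 was higher in control than in WT (0.89 ± 0.18, adjusted p = 0.00412). The counts do not show splicing of XBP1: its 2 transcript rows differed by 8 to 27 reads a library.

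The chaperone HSPA5 (BiP; chr9:125234853-125241343) is the main Hsp70 of the ER and keeps the sensors inactive when unfolded proteins are few. It had 1047 and 1464 CPM in MLL4 KO, 1331 and 1426 in BAP1 KO, 3384 and 3404 in control and 762 and 1162 in WT. The control libraries stood apart from the other 6, and MLL4 KO and WT overlapped. HSPA5 was lower in BAP1 KO than in control (-1.30 ± 0.22, adjusted p = 0.00329) and higher in control than in WT (1.82 ± 0.22, adjusted p = 0.000360), while its MLL4 KO value was 0.38 ± 0.21 (adjusted p = 0.222).

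SIL1, HYOU1 and DNAJB9, which work on or with HSPA5, were also highest in control. SIL1 (chr5:138946724-139198368), the factor that exchanges its nucleotide, had 25.8 and 30.1 CPM in MLL4 KO, 24.7 and 29.5 in BAP1 KO, 63.5 and 60.5 in control and 23.5 and 21.5 in WT. Control was again apart and the other groups lay close together, with log2 fold changes of -1.20 ± 0.14 in BAP1 KO (adjusted p = 0.000685) and 1.46 ± 0.15 in control against WT (adjusted p = 0.000131). HYOU1, a large Hsp70-like exchange factor, had 316 and 456 CPM in MLL4 KO, 393 and 391 in BAP1 KO, 683 and 683 in control and 298 and 301 in WT. Its libraries did not overlap in any comparison, and it was lower in BAP1 KO (-0.80 ± 0.16, adjusted p = 0.00773) and higher in control (1.19 ± 0.16, adjusted p = 0.000623). DNAJB9, the J-domain protein that brings HSPA5 to IRE1, had 12.6 and 16.3 CPM in MLL4 KO, 30.7 and 33.5 in BAP1 KO, 52.8 and 48.4 in control and 7.06 and 11.9 in WT. The groups formed 4 separate steps, and DNAJB9 had the highest value of the 44 in control against WT (2.41 ± 0.23, adjusted p = 0.000113); in BAP1 KO it was at -0.66 ± 0.21 and missed the threshold (adjusted p = 0.0536).

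Among the other J-domain proteins, which hand clients to HSPA5, DNAJC10 had 90.8 and 79.5 CPM in MLL4 KO, 154 and 147 in BAP1 KO, 203 and 206 in control and 100 and 116 in WT. The groups did not overlap in any comparison, and the gene was lower in BAP1 KO (-0.44 ± 0.12, adjusted p = 0.0314) and higher in control (0.92 ± 0.12, adjusted p = 0.000561). DNAJB11 had 87.4 and 67.9 CPM in MLL4 KO, 70.1 and 73.2 in BAP1 KO, 117 and 122 in control and 79.2 and 126 in WT. The WT replicates spanned nearly the whole range, and of its 3 values only that of BAP1 KO passed (-0.73 ± 0.21, adjusted p = 0.0327). DNAJC3, also an inhibitor of PERK, was higher in control than in WT (100 ± 0.736 against 59.6 ± 8.04 CPM, mean ± SD, n = 2 each), with 0.75 ± 0.13 on the log2 scale.

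HSP90B1 (GRP94), the Hsp90 of the ER, passed in neither knockout. It had 1011 and 817 CPM in MLL4 KO, 1126 and 1116 in BAP1 KO, 1403 and 1433 in control and 930 and 1124 in WT. MLL4 KO and WT overlapped, BAP1 KO lay below control without passing (-0.34 ± 0.14, adjusted p = 0.124), and control was higher than WT (0.47 ± 0.14, adjusted p = 0.0294), a call lost without WT replicate 1 or either control replicate. SDF2L1, which works with DNAJB11 on HSPA5 clients, went the other way, with 56.9 and 33.7 CPM in MLL4 KO, 26.6 and 23.9 in BAP1 KO, 24.0 and 29.3 in control and 66.0 and 92.1 in WT. WT was the highest group, SDF2L1 was lower in control (-1.56 ± 0.26, adjusted p = 0.00206), and its value in MLL4 KO was -0.80 ± 0.25 (adjusted p = 0.0560). MANF and CRELD2, secreted factors of the stress response, passed in none of the comparisons, with log2 values between -0.27 and 0.30.

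**Figure D4:**
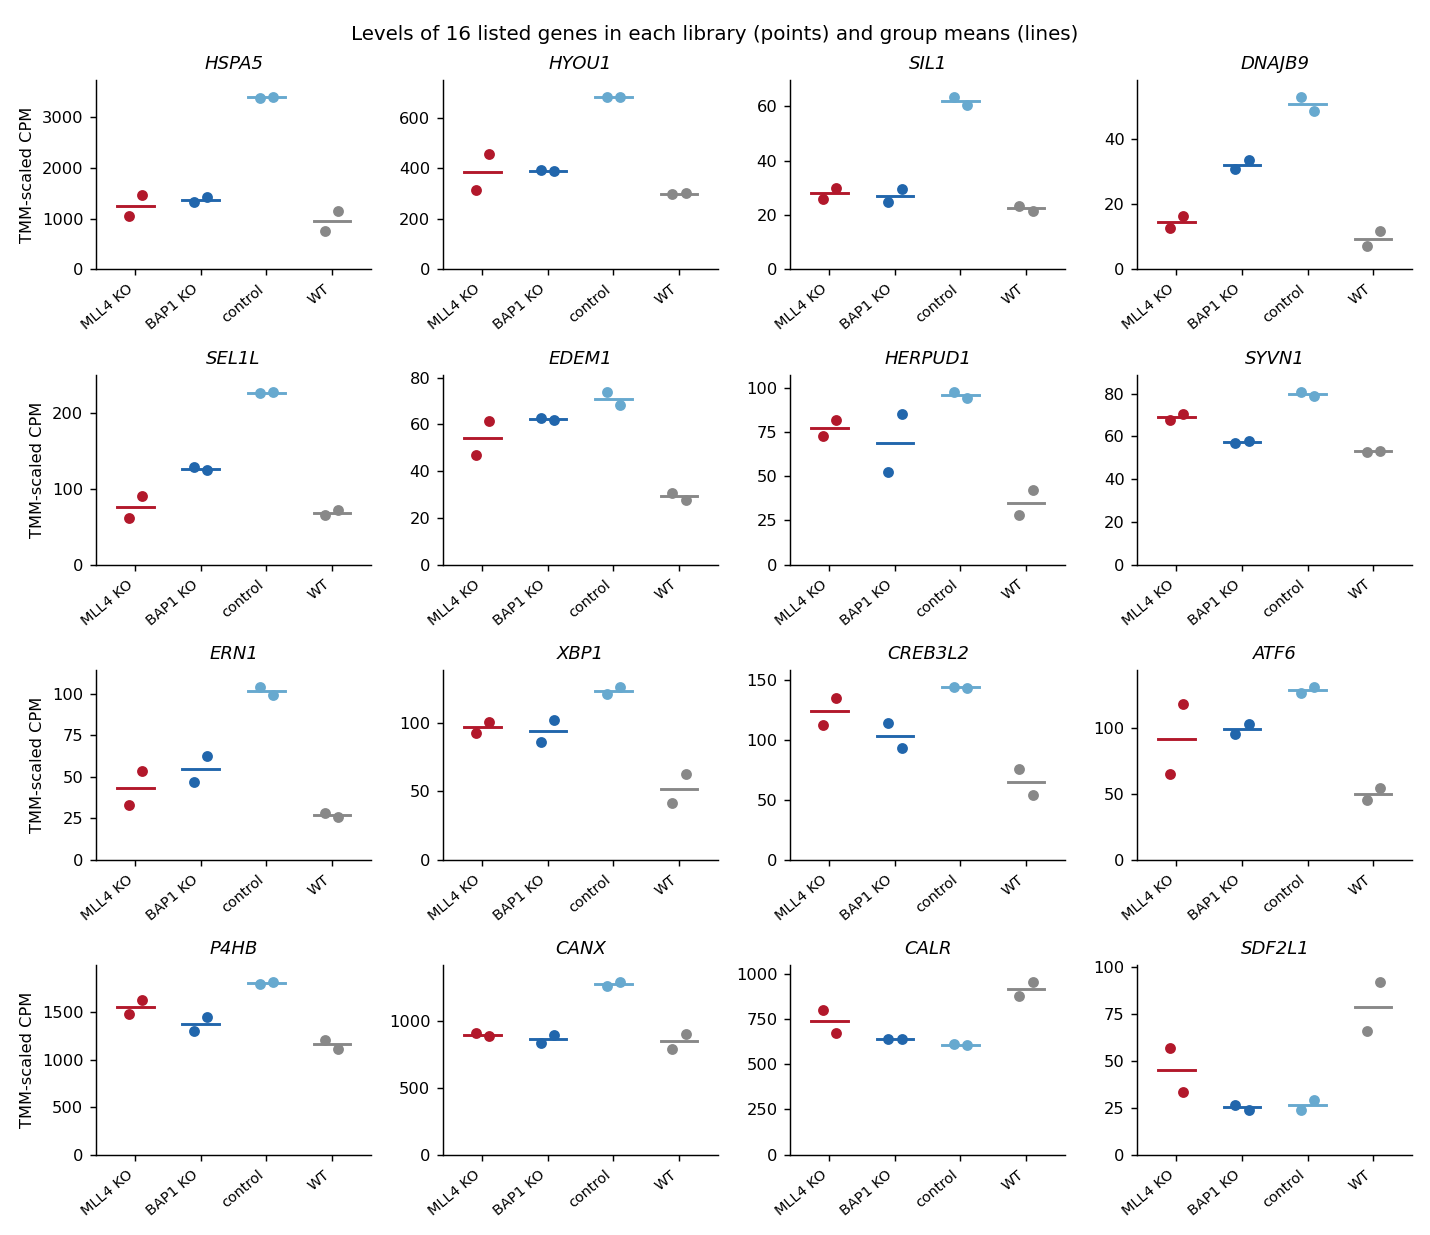
TMM-scaled CPM (vertical axes, from 0) of 16 listed genes in each library (points) and group means (lines), with MLL4 KO, BAP1 KO, control and WT from left to right. Control is the highest group in 14 panels, HSPA5 among them at 3384 and 3404 CPM, and WT is the highest in CALR and SDF2L1.

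In the lectin cycle, which holds glycoproteins until they fold, CANX and CALR moved in opposite directions between the unedited groups. CANX, the membrane lectin calnexin, had 905 and 882 CPM in MLL4 KO, 831 and 891 in BAP1 KO, 1261 and 1285 in control and 790 and 901 in WT. Control was above all 6 other libraries, and CANX was lower in BAP1 KO (-0.56 ± 0.12, adjusted p = 0.00993) and higher in control than in WT (0.59 ± 0.12, adjusted p = 0.00435). CALR, its soluble partner calreticulin, had 801 and 675 CPM in MLL4 KO, 638 and 641 in BAP1 KO, 609 and 605 in control and 880 and 953 in WT. WT was the highest group and control the lowest, with -0.59 ± 0.12 in control against WT (adjusted p = 0.00511), lost without either control replicate, and 0.07 ± 0.12 in BAP1 KO. UGGT1, which re-glucosylates glycoproteins that have not folded, had 119 and 109 CPM in BAP1 KO against 149 and 145 CPM in control, with -0.37 ± 0.11 (adjusted p = 0.0464), and 163 and 154 CPM in MLL4 KO against 155 and 172 CPM in WT, which overlap.

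Of the 8 genes of disulfide formation, 4 were lower in BAP1 KO (10.4% of all tested genes were) and all 8 had both BAP1 KO libraries below both control libraries (35.2% of all). P4HB, the archetypal protein disulfide isomerase, had 1482 and 1625 CPM in MLL4 KO, 1298 and 1454 in BAP1 KO, 1797 and 1814 in control and 1212 and 1112 in WT. It was higher in MLL4 KO than in WT (0.42 ± 0.12, adjusted p = 0.0437) and lower in BAP1 KO than in control (-0.39 ± 0.12, adjusted p = 0.0485), with no overlap in either. The MLL4 KO call was lost under 3 of 10 alternatives and with 5 of the 8 libraries left out in turn, and the BAP1 KO call under 1 alternative and without any of the 4 libraries of the comparison. PDIA3, the isomerase that works with calnexin, had 461 and 445 CPM in MLL4 KO, 402 and 445 in BAP1 KO, 560 and 569 in control and 367 and 404 in WT. Control was again apart, with -0.41 ± 0.12 in BAP1 KO (adjusted p = 0.0323) and 0.55 ± 0.12 against WT (adjusted p = 0.00534). TXNDC5 had 351 and 334 CPM in MLL4 KO, 244 and 251 in BAP1 KO, 340 and 342 in control and 295 and 342 in WT. BAP1 KO was the lowest group (-0.46 ± 0.12, adjusted p = 0.0214), but TXNDC5 shares reads with the readthrough gene BLOC1S5-TXNDC5 (288 CPM on average) and is uncertain.

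The oxidases that recharge these isomerases differed from each other. ERO1A, which hypoxia also raises, had 73.1 and 76.4 CPM in MLL4 KO, 72.1 and 66.8 in BAP1 KO, 96.3 and 98.6 in control and 94.1 and 104 in WT. Both knockouts were below both unedited groups, while the unedited groups overlapped each other. ERO1A fell by 0.41 ± 0.11 in MLL4 KO (adjusted p = 0.0364) and by 0.49 ± 0.11 in BAP1 KO (adjusted p = 0.0145). The MLL4 KO call of ERO1A was lost under 4 of 10 alternatives, upper-quartile scaling among them, and with 7 of the 8 libraries left out in turn. ERO1B, the form induced in the unfolded protein response, had 12.7 and 15.1 CPM in MLL4 KO, 17.4 and 13.9 in BAP1 KO, 22.9 and 22.1 in control and 7.17 and 8.84 in WT. Both WT libraries were the lowest, and ERO1B was higher in MLL4 KO (0.78 ± 0.19, adjusted p = 0.0255) and in control against WT (1.48 ± 0.19, adjusted p = 0.000445), with -0.52 ± 0.18 in BAP1 KO (adjusted p = 0.0660).

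The 11 ERAD genes had a median log2 fold change of 1.01 in control against WT, where 8 were higher (19.9% of all tested genes were). All 11 values were positive there (8581 of all 16831 were), and all 11 were negative in BAP1 KO (8199 of all were). By the adjusted p only 2 of the 11 were lower in BAP1 KO (10.4% of all tested genes were), and 2 had overlapping libraries. Both comparisons use the control libraries, on opposite sides. SEL1L, the adaptor that holds HRD1 to its substrates, had 62.0 and 90.3 CPM in MLL4 KO, 128 and 124 in BAP1 KO, 227 and 228 in control and 65.0 and 72.0 in WT. BAP1 KO lay between control and WT, with -0.85 ± 0.17 against control (adjusted p = 0.00679) and 1.73 ± 0.17 for control against WT (adjusted p = 0.000124). SYVN1, the ubiquitin ligase HRD1, had 67.6 and 70.4 CPM in MLL4 KO, 57.1 and 58.0 in BAP1 KO, 80.7 and 78.8 in control and 52.6 and 53.2 in WT. The replicates were close in every group, and SYVN1 was higher in MLL4 KO (0.38 ± 0.11, adjusted p = 0.0368) and lower in BAP1 KO (-0.47 ± 0.11, adjusted p = 0.0133); the MLL4 KO call was lost under 4 of 10 alternatives and with 7 of the 8 libraries left out in turn. SYVN1 overlaps MRPL49 (90.4 CPM on average), and the sources used here give no strand setting of the counting.

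HERPUD1, a scaffold that joins the HRD1 complex, had 72.7 and 81.6 CPM in MLL4 KO, 52.6 and 85.0 in BAP1 KO, 97.7 and 94.4 in control and 27.8 and 42.0 in WT. MLL4 KO was well above WT (1.14 ± 0.25, adjusted p = 0.0205), the largest rise of the 44 in that comparison, while the BAP1 KO replicates were far apart and their value did not pass (-0.48 ± 0.24, adjusted p = 0.190). EDEM1, which trims mannose to mark glycoproteins for removal, had 46.7 and 61.5 CPM in MLL4 KO, 62.9 and 61.8 in BAP1 KO, 73.8 and 68.1 in control and 30.7 and 27.5 in WT. Its MLL4 KO value (0.89 ± 0.15, adjusted p = 0.0104) passed with every library left out in turn and failed in the 4-library fit only. OS9, the lectin that reads that mark, had 152 and 188 CPM in MLL4 KO, 187 and 203 in BAP1 KO, 232 and 226 in control and 120 and 107 in WT. It was higher in MLL4 KO (0.58 ± 0.14, adjusted p = 0.0226) and in control against WT (1.01 ± 0.14, adjusted p = 0.000572), with no overlap in either.

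The mannosidases EDEM2 and EDEM3 and the channel protein DERL2 passed in control against WT and in neither knockout. EDEM3 had 56.6 and 60.0 CPM in control against 28.8 and 18.1 CPM in WT (1.32 ± 0.20, adjusted p = 0.000962), DERL2 had 34.4 and 33.0 CPM against 20.1 and 23.0 CPM (0.64 ± 0.14, adjusted p = 0.00546), and EDEM2 had 33.5 and 33.2 CPM against 18.4 and 18.1 CPM (0.87 ± 0.13, adjusted p = 0.000922). EDEM2 shares reads with the readthrough gene MMP24-AS1-EDEM2 and DERL2 overlaps MIS12 (20.5 CPM on average), so both are uncertain. DERL1, DERL3 and SELENOS passed in none of the comparisons, and DERL3, at 0.0776 to 0.487 CPM, was too low for a change to be detectable at this depth.

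Among the translocation, export and retrieval genes, the order was mixed. SEC24D, a cargo adaptor of the COPII coat, had 35.9 and 44.4 CPM in MLL4 KO, 102 and 90.8 in BAP1 KO, 72.4 and 63.6 in control and 30.9 and 39.5 in WT. BAP1 KO was the highest group here, and SEC24D was the only listed gene that was higher in BAP1 KO (0.50 ± 0.16, adjusted p = 0.0488), a call lost under RLE scaling, with no filter, with the replicate number as a block, with the legacy dispersion and without any of the 4 libraries of the comparison. SEC61A1, the pore of the translocon, had 324 and 290 CPM in MLL4 KO, 337 and 330 in BAP1 KO, 440 and 432 in control and 293 and 336 in WT. MLL4 KO and WT overlapped, BAP1 KO was lower (-0.39 ± 0.12, adjusted p = 0.0469) and control higher than WT (0.47 ± 0.12, adjusted p = 0.0132). SSR1, a subunit of the translocon-associated complex, and KDELR3, a receptor that returns KDEL proteins to the ER, were also higher in control than in WT (0.69 ± 0.12 and 0.54 ± 0.16), and SEC61B and KDELR2 passed in none. The KDELR3 call was lost in the 4-library fit and without WT replicate 2 or either control replicate. KDELR3 (35.2 CPM on average) overlaps DDX17 (367 CPM), and SEC61A1 overlaps RUVBL1 (114 CPM), so both are uncertain without the strand setting.

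Of the 44 genes, 34 passed in at least 1 of the 3 comparisons, against 54.3% of all tested genes, and 10 in none: MANF, CRELD2, PDIA4, PDIA6, TXNDC11, DERL1, DERL3, SELENOS, SEC61B and KDELR2. Apart from DERL3, whose values were 0.79 ± 0.72, -1.08 ± 0.72 and 1.05 ± 0.72 in MLL4 KO, BAP1 KO and control against WT, the log2 fold changes of these lay between -0.48 and 0.33. A p that misses the threshold does not show that their levels were the same.

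The knockouts' effects were then set against each other by the interaction, MLL4 KO against WT minus BAP1 KO against control, to test whether they differ. In 18 of 44 genes the measured effects differed, and in all 18 the difference was positive (7.75% of all tested genes passed as positive and 8.32% as negative, 16.1% together). With upper-quartile scaling the shares of all genes were 9.43% and 6.42%. The knockouts are set against different unedited groups, so the knocked-out gene and the background cannot be told apart in this difference. It also contains control minus WT, so it is not independent of that comparison. All of the 18 but TXNDC5 were also higher in control than in WT (19.9% of all tested genes were). The libraries of 14 of these 18 lay above WT in MLL4 KO and below control in BAP1 KO, as did 8.83% of all tested genes and 61.0% of those with a positive difference. SIL1 differed by 1.51 ± 0.20 (adjusted p = 0.00253), CREB3L2 by 1.41 ± 0.25 (adjusted p = 0.00704), SYVN1 by 0.85 ± 0.15 (adjusted p = 0.00728) and HSPA5 by 1.68 ± 0.30 (adjusted p = 0.00804). SYVN1 and P4HB were the 2 genes that passed in both knockouts with opposite signs, with the losses given above, and ERO1A, lower in both, differed by 0.08 ± 0.16 (adjusted p = 0.759). The calls of SIL1 and CREB3L2 held in every alternative, and 4 of 44 passed without BAP1 KO replicate 1 (5.06% of all), control replicate 1 (4.17%) or control replicate 2 (3.94%).

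For most of the 44 the BAP1 KO level lay between those of the unedited groups. Its mean was between the WT mean and the control mean in 31 of 44 genes (37.8% of all tested genes). It was below both in 10 (5035 of all 16831 tested genes) and above both in 3 (5409 of all). HSPA5 averaged 1378 ± 67.1 CPM in BAP1 KO, 3394 ± 13.8 CPM in control and 962 ± 283 CPM in WT (SD, n = 2 each). SEL1L averaged 126 ± 2.94 CPM in BAP1 KO, 227 ± 0.934 CPM in control and 68.5 ± 4.93 CPM in WT. Such a position was not particular to BAP1 KO. In MLL4 KO, HSPA5 averaged 1255 ± 295 CPM and SEL1L 76.2 ± 20.0 CPM, also between the WT and control means. DNAJC10, at 85.2 ± 7.98 CPM in MLL4 KO, lay below both (108 CPM in WT and 204 CPM in control). The number of listed genes with an MLL4 KO mean between the 2 was not taken. Which unedited group is nearer to the level of the cells that BAP1 KO was made from was not tested.

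Genes with an ER stress response element did not all go one way. Of the 11 with ERSE or ERSE-II, 3 were higher in MLL4 KO (9.13% of all tested genes were), 3 were lower in BAP1 KO (10.4% of all), and 7 were higher and 2 lower in control against WT (19.9% and 19.7% of all). Of the 28 with a promoter window and no match, 6 were higher and 1 lower in MLL4 KO, 11 were lower in BAP1 KO, and 19 were higher in control against WT. The other 8 and 21 with and without a match did not pass in MLL4 KO, nor did 8 and 17 in BAP1 KO. The medians in control against WT were 0.59 with a match and 0.67 without. The 2 genes that were lower in control, SDF2L1 and CALR, both hold a match in the opposite orientation to the gene. So do HYOU1, ERO1B and HSP90B1, which were higher in control (HSP90B1 also holds a match in the orientation of the gene), and CRELD2, which did not pass.

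A further 110 genes of the same pathways, 108 of them tested, were examined in 5 lists. In MLL4 KO 13 of the 108 were higher and 5 lower (9.13% and 10% of all tested genes were), and in BAP1 KO 4 were higher and 23 lower (12.1% and 10.4% of all). In control against WT 46 were higher and 14 lower (19.9% and 19.7% of all), and each list below is set against these same shares. Their median log2 fold changes were 0.00, -0.12 and 0.32. Of the 15 genes of stress signalling, 4 were higher and 1 lower in MLL4 KO (median 0.07), 2 were lower in BAP1 KO (median -0.34; 13.3% of the list against 10.4% of all), and 6 were higher and 2 lower in control against WT (median 0.17). The 4 that were higher in MLL4 KO were DDIT3, CHAC1, TRIB3 and ATF4. Whether PERK acted above them here was not tested, and EIF2AK3 itself did not pass in MLL4 KO (0.55 ± 0.18, adjusted p = 0.0603). DDIT3, the transcription factor CHOP, had 90.9 and 155 CPM in MLL4 KO against 10.5 and 18.6 in WT. In the BAP1 KO libraries it had 72.0 and 128 CPM, against 142 and 138 in control. It was higher in MLL4 KO by 3.07 ± 0.41 (adjusted p = 0.0101), a call that passed in every alternative, the 4-library fit included. CHAC1, a glutathione-degrading target of ATF4, had 59.3 and 48.6 CPM in MLL4 KO against 4.46 and 5.22 in WT. In the BAP1 KO libraries it had 28.7 and 76.7 CPM, against 97.2 and 97.5 in control. Its value in MLL4 KO was 3.47 ± 0.47 (adjusted p = 0.0101), lost with limma-voom and without WT replicate 2.

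TRIB3, a pseudokinase induced by CHOP, was higher in MLL4 KO by 2.33 ± 0.36 (adjusted p = 0.0119). ATF4 itself was higher by 0.83 ± 0.18 (adjusted p = 0.0181). Neither gene passed in the 4-library fit or without WT replicate 2, and the ATF4 call was also lost without MLL4 KO replicate 2. In control the same 4 genes were also above WT, by 3.26 ± 0.42 for DDIT3, 4.32 ± 0.48 for CHAC1, 2.78 ± 0.36 for TRIB3 and 0.92 ± 0.18 for ATF4. In BAP1 KO they lay between -0.89 and -0.34 and did not pass. WFS1, an ER membrane protein of this list, was lower in BAP1 KO (-0.61 ± 0.13, adjusted p = 0.0100). EIF2S1, the substrate of PERK, was lower in both MLL4 KO (-0.64 ± 0.16, adjusted p = 0.0266) and BAP1 KO (-0.56 ± 0.16, adjusted p = 0.0337). The MLL4 KO call of EIF2S1 was lost in the 4-library fit, and its BAP1 KO call with the replicate number as a block. The calls of WFS1 and EIF2S1 were also lost with some of the libraries left out in turn.

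In the translocon, signal peptidase and oligosaccharyltransferase list, 8 of 22 were lower in BAP1 KO (10.4% of all tested genes were; median -0.26), and 10 were higher and 1 lower in control against WT (19.9% and 19.7% of all; median 0.30). SEC11C, a catalytic subunit of signal peptidase, had 22.7 and 21.9 CPM in BAP1 KO against 49.3 and 45.7 CPM in control (-1.09 ± 0.14, adjusted p = 0.00106), and passed in every alternative. DAD1 and OSTC of the oligosaccharyltransferase fell by 0.60 ± 0.11 and 0.85 ± 0.17, and SSR4 of the translocon-associated complex fell by 0.63 ± 0.12. In MLL4 KO, 1 of this list passed, MAGT1 (0.53 ± 0.12). Of 14 COPII and retrieval genes, 4 were lower and 1 higher in BAP1 KO (10.4% and 12.1% of all; median -0.04), and 4 were higher and 3 lower in control against WT (19.9% and 19.7% of all; median -0.11). In MLL4 KO (median -0.10) edgeR and DESeq2 each passed 0, edgeR with 1 higher and 3 lower at an unadjusted p under 0.05. The genes of this list with the smallest p in BAP1 KO were the cargo receptor pair LMAN1 (-0.74 ± 0.12, adjusted p = 0.00316) and MCFD2 (-0.51 ± 0.11, adjusted p = 0.0103), with TMED2 at -0.49 ± 0.12 and SAR1A, the COPII GTPase, higher at 0.50 ± 0.13.

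In the list of other folding factors, 6 of 30 were higher and 1 lower in MLL4 KO (9.13% and 10% of all tested genes; median 0.10). In BAP1 KO 1 was higher and 6 lower (12.1% and 10.4% of all; median -0.12), and in control against WT 16 were higher and 1 lower (19.9% and 19.7% of all; median 0.49). FKBP9, a peptidyl-prolyl isomerase of the ER, had 138 and 155 CPM in MLL4 KO against 76.3 and 65.1 CPM in WT (1.06 ± 0.12, adjusted p = 0.00338), failing in the 4-library fit only. FKBP14, of the same family, had 8.77 and 6.70 CPM in BAP1 KO against 24.0 and 25.3 CPM in control (-1.67 ± 0.19, adjusted p = 0.000487) and passed in every alternative. PRKCSH, the glucosidase II subunit, and FKBP10 were higher in MLL4 KO (0.64 ± 0.14 and 0.56 ± 0.12), and DNAJC25 was lower (-0.76 ± 0.18). In BAP1 KO the calnexin homologue CLGN (-1.64 ± 0.35) and the isomerase PPIB (-0.65 ± 0.14) were lower, and DNAJB14 was higher (0.72 ± 0.14).

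Of 27 other ERAD factors, 5 passed in each knockout, 2 higher and 3 lower (18.5% of the list, against 19.1% of all tested genes in MLL4 KO and 22.4% in BAP1 KO; median 0.04 in each), so their share was near that of all genes. In control against WT 10 were higher and 7 lower (19.9% and 19.7% of all; median 0.35). UBE2J1, the ubiquitin-conjugating enzyme that serves HRD1, had 48.7 and 57.2 CPM in BAP1 KO against 114 and 113 CPM in control (-1.10 ± 0.12, adjusted p = 0.000468), and passed in every alternative. HM13, the signal peptide peptidase, was higher in MLL4 KO (0.54 ± 0.13) and lower in BAP1 KO (-0.54 ± 0.13), and UFD1 and UBE2J2 were lower in MLL4 KO (-0.70 ± 0.17 and -0.50 ± 0.14). FAM8A1, a HRD1 cofactor, was higher in MLL4 KO (0.68 ± 0.13), and JKAMP and ERLIN1 were higher in BAP1 KO (0.58 ± 0.12 and 0.54 ± 0.13). Over the 5 lists together, in MLL4 KO 2 genes passed in the 4-library fit and 2 without WT replicate 2, where the full fit passed 18, and in BAP1 KO 5 or 6 passed without BAP1 KO replicate 1 or either control replicate, where the full fit passed 27.

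**Figure D5:**
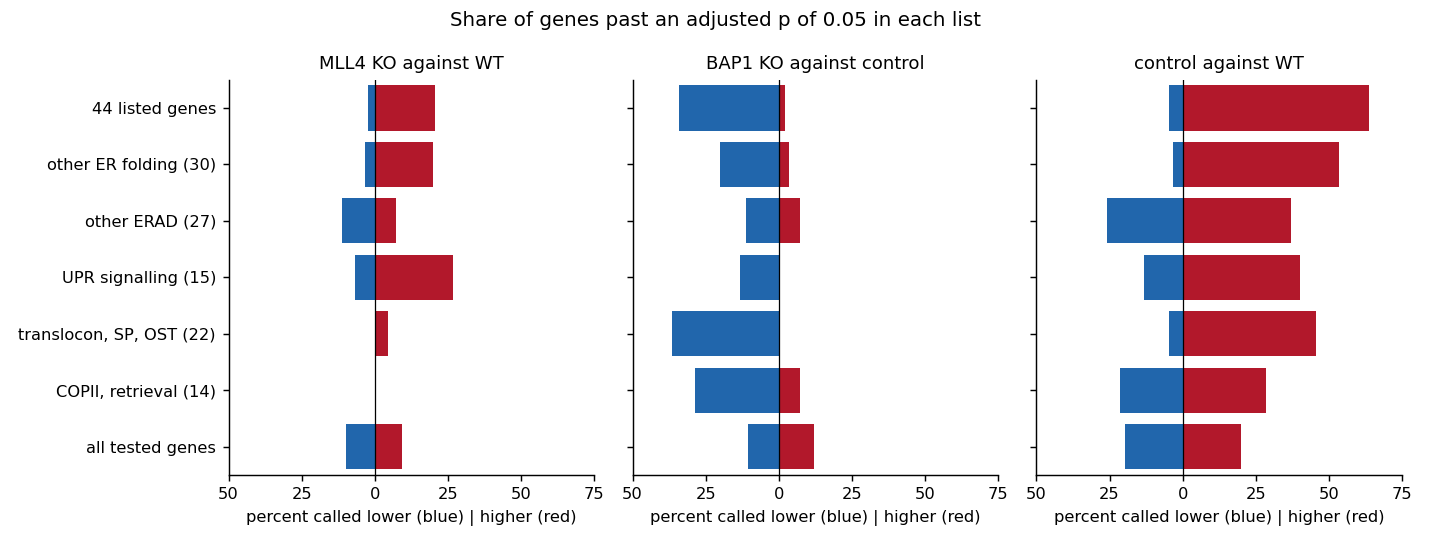
Percent of genes past an adjusted p of 0.05 (horizontal axis, higher in red to the right, lower in blue to the left) for the 44 listed genes, 5 further lists (number of tested genes in parentheses; SP, signal peptidase; OST, oligosaccharyltransferase) and all tested genes. In BAP1 KO against control, lower calls are 15 of 44 listed genes and 8 of 22 in the translocon list, where 10.4% of all tested genes were lower.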

How the data were processed

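Polyadenylated RNA was purified from 1 µg of total RNA for each library, per the labels' protocols. Each library's deposited table holds whole-number read counts, which the authors did not normalize, and RPKM per RefSeq transcript, scaled to length and library size, per the file headers. The submitters' processing notes name hg38, bcl2fastq, Bowtie2, STAR and SICER 1.1. The sources used here give neither the counting tool nor its strand setting. Of 88819 rows, 605 without a symbol (0.23% to 0.252% of counts) were left out, and the row with the highest mean count stood for each gene.

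Counts were fitted in R 4.3.3 with edgeR 4.0.16 (filterByExpr, TMM, robust quasi-likelihood, all 8 libraries, 1 mean a group). SEs were derived from F and the log2 fold change. The script was tested on simulated data. RPKM entered no test. Precision is limited by 2 libraries a group and 24.8 to 42.2 M counts (1e6) a library.

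The members and lists were chosen with earlier results of these data known, as were the alternatives: RLE and upper-quartile scaling, DESeq2 1.42.0, voom with sample weights (limma 3.58.1), no filter, 1 CPM in 4 libraries, 4-library fits, a replicate block, the longest transcript row and leaving out each library. The legacy dispersion was added after seeing the data. Library values are given for the sensors, HSPA5, HSP90B1, HERPUD1 and members past the threshold (the 12 with the smallest p in control against WT), and up to 4 genes a list and knockout are named beside them. DNAJC3, EDEM2, DERL2, SSR1 and KDELR3 were named beyond that rule. Libraries of a group differed beyond sampling noise, so none was counted as a duplicate.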

Additional observations from a re-analysis of the deposited data

Results flagged for a closer look

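A difference between the knockouts' effects, tested by the interaction in edgeR's quasi-likelihood model (MLL4 KO against WT minus BAP1 KO against control, log2 scale, adjusted over all tested genes), marked 18 of the 44 genes, all with a positive value. Among the sensors and transcription factors it was 1.58 for ERN1, 1.41 for CREB3L2, 1.29 for XBP1 and 1.25 for ATF6. Among the chaperones and their partners it was 1.68 for HSPA5, 1.51 for SIL1, 1.25 for DNAJB9 and 1.17 for HYOU1, and in the lectin cycle 0.64 for CANX. Among the disulfide genes it was 1.30 for ERO1B, 0.81 for P4HB, 0.65 for PDIA3 and 0.56 for TXNDC5. Among the ERAD genes it was 1.62 for HERPUD1, 1.08 for EDEM1, 1.00 for SEL1L, 0.85 for SYVN1 and 0.81 for OS9. The 16.1% of all tested genes that passed in this comparison split into 7.75% positive and 8.32% negative. Because the knockouts are set against different unedited groups, the difference cannot tell the knocked-out gene from the background. The difference also contains control minus WT and is not independent of that comparison.

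In all 18 the MLL4 KO and BAP1 KO effects had opposite signs, in 14 of them with no overlap between the libraries of either comparison. Choosing genes by this difference favours opposite signs: among all 1304 tested genes with a positive difference, 81.4% had them and 61.0% did so with no overlap. Every one of the 18 differences rests on the control libraries, which had the smallest spread of the 4 groups (a median of 0.04 log2 units over the 44 genes), and CREB3L2 and SIL1 kept their call with any 1 library left out.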

How the results depend on the processing

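With limma-voom and sample weights, 5 listed genes passed in MLL4 KO (1634 of all genes) and 29 in BAP1 KO (6526 of all). In fits on 4 libraries, 0 listed genes passed in MLL4 KO (60 of all) and 33 in BAP1 KO (6660 of all). Leaving out each library in turn, listed genes past the threshold numbered 1 to 16 in MLL4 KO (530 to 5290 of all genes), 2 to 24 in BAP1 KO (1075 to 5014), 25 to 32 in control against WT (3253 to 7269) and 4 to 17 in the difference of effects (681 to 4426). The other alternatives kept these counts within 1.5 times, no called value changed sign, and the causes of the moves were not tested. The labels do not say whether replicate numbers pair the samples. Deviations of same-numbered replicates correlated at -0.19 between MLL4 KO and WT and between -0.03 and 0.06 in the other pairs of groups. Such values cannot exclude that same-numbered libraries were handled together. With the number as a replicate block, 7, 12, 30 and 17 listed genes passed in MLL4 KO, BAP1 KO, control against WT and the difference. Median log2 fold changes of the 44 kept their sign throughout: 0.09 to 0.26 in MLL4 KO, -0.40 to -0.33 in BAP1 KO and 0.57 to 0.72 in control against WT. Depth limits DERL3, at 2 to 21 reads a library.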
